A study of Homo sapiens with 2 samples.

Results

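The cell cycle and DNA replication genes described here were chosen by symbol among the protein-coding genes of GENCODE release 44. They comprise the CDK and CDC genes with a number, the CDKN genes (among them the CDK inhibitors) and cyclins A to H, K, L and T. They also take in MCM2 to MCM10, E2F1 to E2F8, AURKA, AURKB, PLK1 to PLK4, PCNA, RRM1, RRM2, TOP2A and the KIF genes with a number. In all, the group holds 157 of 20046 protein-coding genes. A symbol is not a function, and the group therefore also holds genes that act outside the cell cycle, such as CDC42 and KIF1C. YB-1 binding was measured by PAR-CLIP in the wild-type form of HEK293T, an established line of human kidney origin. There were 2 independent replicates, named Rep.A and Rep.B, in 1 condition with no control library. The cells received 100 µM 4-thiouridine for 16 h, followed by UV light of 365 nm at 0.15 J/cm2. RNase T1, an enzyme that cuts RNA behind G, shortened the bound RNA, which was then collected with antibodies to a C-terminal peptide of YB-1. The deposited tables list clusters, short stretches of the genome with T-to-C changes at crosslinked bases, each with its mean coverage in reads per base.

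Passage through the cell cycle is driven by cyclin-dependent kinases (CDKs), which cyclins activate and CDK inhibitors block, and E2F transcription factors switch on genes needed for S phase. The MCM2 to MCM7 proteins form the helicase that opens DNA at replication origins, PCNA holds polymerases on the template, and kinesins move along or shorten microtubules, several of them in the mitotic spindle. YB-1 is a cold shock domain protein that coats mRNA, affects its translation and stability, and prefers short C- and A-rich stretches such as CATC and its variant CACC.

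Clusters lay in exons of 15 of the 157 genes (9.55%), against 4.44% of all protein-coding genes. In 9 genes (5.73%) clusters of both replicates overlapped by 1 base or more on 1 strand, which is called reproducible here, against 2.87% of all protein-coding genes. These 9 were the phosphatase gene CDC25A, the chaperone gene CDC37, the GTPase gene CDC42, the transcription factor gene E2F2, the kinesin genes KIF18B, KIF1C and KIF20A, and the helicase genes MCM4 and MCM6. KIF1C held 2 reproducible sites and the others 1 each, which gave 10 sites. The shares cannot be read as a preference of YB-1 for the group, since the tables hold neither expression nor the regions that were not called. For the same reason a gene without a cluster is not shown to be unbound.

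The RNA sequences of the reproducible sites are shown because they carry the contact itself, as the widest extent over both replicates, 5′ to 3′ in the letters of the DNA, with CATC and CACC in capitals. They are from the deposited tables and were identical to the hg38 sequence. MCM4 is described without its sequence.
CDC25A, chr3:48158790-48158814, minus strand, 3′ UTR: taaacctacctcccacactcccaag
CDC37, chr19:10391525-10391546, minus strand, 3′ UTR: ccccagctacCACCgcCACCtg
CDC42, chr1:22078539-22078568, plus strand, coding sequence: atatcctacacaacaaacaaatttcCATCg
E2F2, chr1:23508053-23508074, minus strand, 3′ UTR: ctcctacccaaatactcacaag
KIF18B, chr17:44926030-44926051, minus strand, 3′ UTR: tcctaacctaccggcccctctg
KIF1C site 1, chr17:5002759-5002779, plus strand, coding sequence: accagcagccgttcccatgcc
KIF1C site 2, chr17:5007026-5007051, plus strand, coding sequence: cattctcccccaacacggagtcccag
KIF20A, chr5:138187297-138187319, plus strand, coding sequence: ttacttccccgaaCACCaacctg
MCM6, chr2:135872710-135872731, minus strand, coding sequence: caactttcCACCACCattcaag

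The sites were rich in A and C and ended in G. A and C made up 80.0% of the CDC25A site, 77.3% of the CDC37 and E2F2 sites and 63.6% of the KIF18B site, the lowest of the 10. Counted by cluster, the median share of A and C was 72.7% in both replicates, against 68.2% over all clusters in protein-coding exons in each. Of the 27 clusters of the group, 26 ended in G, where RNase T1 cuts. Over all clusters in protein-coding exons, 95.1% of Rep.A and 94.8% of Rep.B ended in G.

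CATC was present in the CDC42 and MCM4 sites and CACC in the CDC37, KIF20A and MCM6 sites. Thus 5 of 10 sites held at least 1 of the tetramers (50.0%, 95% Wilson interval 23.7 to 76.3), against 69.6% of the 665 reproducible sites of at most 60 bases in protein-coding exons. The interval includes the share over all sites, so a lower share in the group was not detectable with 10 sites. The CDC37 site held CACC at 2 places, and the MCM6 site held 2 overlapping copies. The 5 sites without either tetramer were those of CDC25A, E2F2 and KIF18B and both sites of KIF1C. Windows of the same width on the same transcripts that contain a T held a tetramer in 11.0% (MCM6) to 25.5% (KIF18B) of cases, with a mean of 18.5%. When windows were also required to have the same number of G bases and the same last base, the mean was 37.9%. Only 2 (MCM4) to 251 (KIF1C site 1) such windows were found for a site, and 6 for each of CDC25A, CDC42, E2F2 and MCM6. Both sets of windows include the site itself. Where few windows were found the site makes up much of them, so 37.9% is not a background independent of the sites. On the opposite strand no cluster of the group held either tetramer, as few did over all clusters in protein-coding exons (0.899% in Rep.A and 2.21% in Rep.B). There the tetramers would read GATG or GGTG on the RNA, and G was scarce in the clusters. Its median share was 9.76% in Rep.A and 10.0% in Rep.B for the group, against 4.76% over all in each. The count therefore cannot serve as a strand control.

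**Figure D1:**
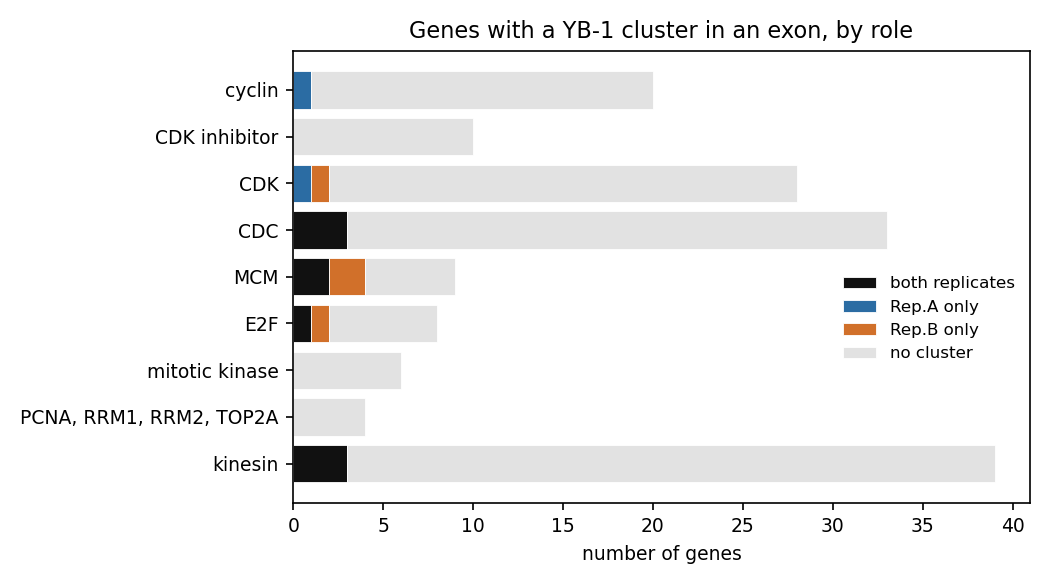
Number of genes of each role (horizontal axis) with a YB-1 cluster in an exon in both replicates at an overlapping position, in 1 replicate only, or in neither. The CDC and kinesin genes each hold 3 genes found in both replicates, the MCM genes 2 and the E2F genes 1. No cluster was listed for the CDKN genes (labelled CDK inhibitor), the mitotic kinases or PCNA, RRM1, RRM2 and TOP2A.

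Most cyclin and CDK genes had no cluster in the tables, as had most protein-coding genes, of which 4.44% held one. Of 20 cyclin genes, CCNB1 alone held a cluster, in Rep.A. Of 28 CDK genes, CDK12 held one in Rep.A and CDK11A one in Rep.B, and CDK1, CDK2 and CDK4, the kinases of the mitotic, S and G1 phases, were without one. CCNA2, CCND1 and CCNE1, partners of these kinases, were not listed either. None of the 10 CDKN genes, which include the CDK inhibitor genes CDKN1A and CDKN1B (p21 and p27), held a cluster. The 10 were taken by symbol, and some, such as CDKN2AIP, are not CDK inhibitors. The same was true of the 6 mitotic kinase genes, AURKA, AURKB and PLK1 to PLK4. The polymerase clamp gene PCNA, the ribonucleotide reductase genes RRM1 and RRM2 and the topoisomerase gene TOP2A were without clusters in both tables. Extending the search from exons to whole gene spans added no gene. A cluster antisense to KIF2A, with a mean coverage of 2.94 in Rep.B, was not counted.

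CDC25A encodes a phosphatase that activates CDKs by removing inhibitory phosphates, and its site had the highest coverage of the group. Its cluster of 25 bases lay in the last of 15 exons, 143 bases past the stop codon. Mean coverage was 36.6 reads per base in Rep.A and 89.0 in Rep.B, both above most clusters in protein-coding exons (percentiles 94.0 and 93.0). The ends were the same in both replicates, with 1 of 4 T bases changed to C in each.

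The other 2 genes of the CDC family with a reproducible site act in kinase folding and in cell shape. CDC37, a co-chaperone that brings kinases to HSP90, held a cluster 16 bases past the stop codon, in the last of 8 exons. Its mean coverage was 23.3 in Rep.A and 75.9 in Rep.B. CDC42, a small GTPase that organises actin and cell polarity, held a cluster in exon 2 of 6, at 12.9% of the coding sequence, on the transcript used here. Its coverage was 9.83 in Rep.A and 22.4 in Rep.B, among the lower values, and its 30 bases were the only cluster of the group with 2 changed T bases, in both replicates. The CDC42 sequence occurs 3 times in the genome, the others being in the processed pseudogene CDC42P6 (chr4:22727861-22727890) and another processed pseudogene (chr7:55876936-55876965). It also lies in an exon of a further protein-coding gene that overlaps CDC42. Reads of these copies cannot be told apart, and the alignment placed such reads at random.

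Among the E2F genes, E2F2 held a reproducible site and E2F1 held 2 clusters in Rep.B alone. Both factors activate S phase genes. The E2F2 cluster lay 1817 bases past the stop codon, the farthest of the 4 sites in 3′ UTRs, in the last of 7 exons. Its coverage was 15.5 in Rep.A and 30.8 in Rep.B. The E2F1 clusters lay in the coding sequence, at 92.8% (chr20:33676818-33676839, minus strand) with a coverage of 51.0 and at 23.5% (chr20:33680360-33680379, minus strand) with a coverage of 11.0. The first held CACC, and the second held neither tetramer and had 9 G among its 20 bases. The remaining 6 E2F genes were without clusters, and over all protein-coding genes 4.44% held one.

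**Figure D2:**
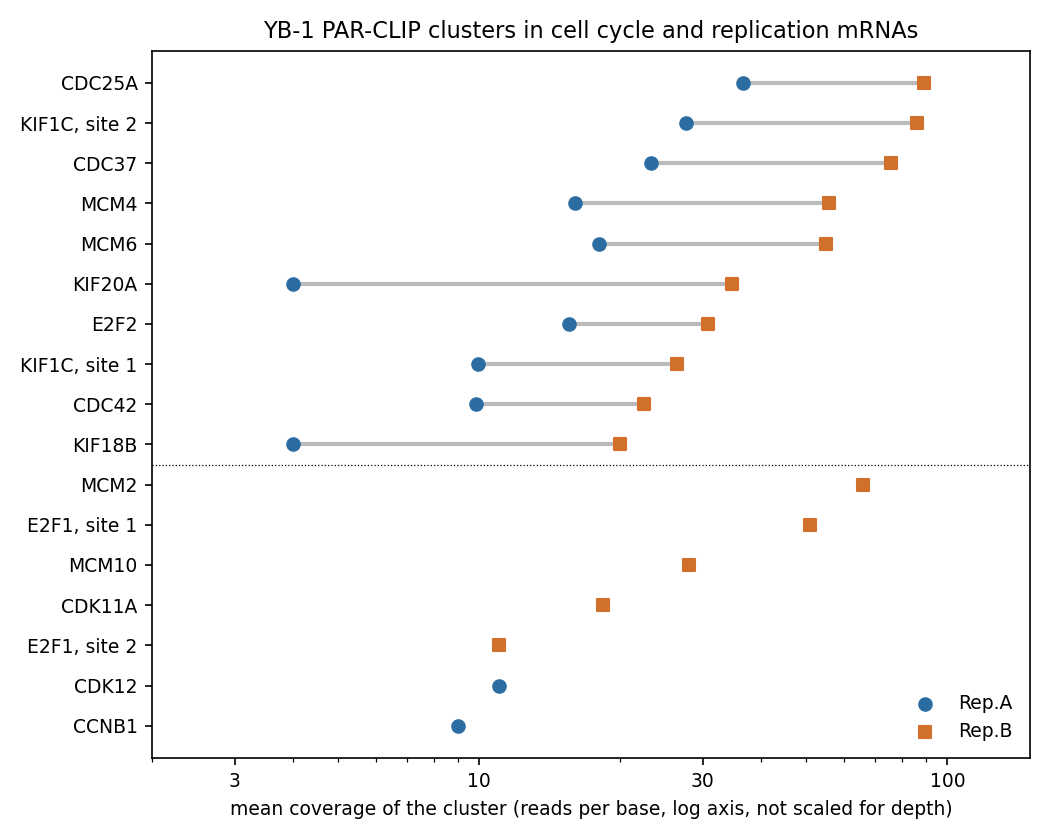
Mean coverage of each cluster (horizontal log axis, reads per base, not scaled for depth) in Rep.A (circles) and Rep.B (squares), 1 row for each site. Sites above the dotted line were found in both replicates, from CDC25A (36.6 and 89.0) to KIF18B (4.0 and 20), and those below it in 1 replicate, from MCM2 (66.0) to CCNB1 (9.0).

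In the MCM family, 4 of 9 genes held a cluster, MCM4 and MCM6 in both replicates and MCM2 and MCM10 in Rep.B alone. Of the 6 subunits of the helicase ring, MCM2 to MCM7, 3 held a cluster and 2 a reproducible one, while MCM3, MCM5 and MCM7 held none. Over all protein-coding genes 4.44% held a cluster and 2.87% a reproducible one. The family is small, and without expression its counts are no measure of preference. The MCM6 cluster lay in exon 2 of 17, at 9.3% of the coding sequence, with a coverage of 18.0 in Rep.A and 55.0 in Rep.B. The MCM4 cluster lay in exon 7 of 18, at 25.1% of the coding sequence, on chromosome 8 from 47963019 to 47963040 (hg38, plus strand), with a coverage of 16.0 in Rep.A and 56.0 in Rep.B. The values of MCM4 and MCM6 were thus close to each other in each replicate, and both clusters were 22 bases wide with the same ends in both tables.

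MCM2, a subunit of the same ring, held the Rep.B cluster with the highest coverage among those found in 1 replicate. It lay at 96.7% of the coding sequence, in the last of 16 exons (chr3:127621672-127621693, plus strand), held CATC and had a coverage of 66.0. MCM10, which helps to switch on the assembled helicase, held a cluster with 2 copies of CACC at 22.2% of its coding sequence (chr10:13172743-13172765, plus strand), with a coverage of 28. The clusters of MCM4 and MCM10 both ended at the last base of their exon. Bowtie, which the authors used, does not align reads across splice junctions. Both clusters also ended in G, as did 26 of the 27 clusters of the group, and what set their ends was not tested.

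Of 39 kinesin genes, KIF18B, KIF1C and KIF20A held reproducible sites and 36 held no cluster, among them KIF11, the motor that separates the spindle poles. Over all protein-coding genes 2.87% held a reproducible cluster. KIF18B, which shortens microtubule plus ends in mitosis, held a cluster 40 bases past the stop codon, in the last of 16 exons. Its coverage was 4.0 in Rep.A and 20 in Rep.B, the lowest of the reproducible sites in Rep.B. KIF20A, a motor needed for cytokinesis, held a cluster in the last of 19 exons at 96.1% of the coding sequence. Its coverage was 4.0 in Rep.A and 34.7 in Rep.B. The Rep.A values of KIF18B and KIF20A were equal and low (percentile 8.22 of all clusters in protein-coding exons).

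KIF1C, a motor that carries vesicles along microtubules, was the only gene of the group with 2 reproducible sites. Site 1 lay in exon 8 of 23, with a coverage of 9.95 in Rep.A and 26.4 in Rep.B. The Rep.A cluster was 19 bases wide, with 1 copy in the genome, and the Rep.B cluster was 10 bases wide, a sequence with 8174 copies. The reads that the authors kept were longer than 10 bases, so the second number does not count the places where they fit. When each cluster had to share at least 50% of its bases with the other, site 1 was no longer reproducible. KIF1C then kept site 2 alone. Site 2 lay in exon 14, at 38.9% of the coding sequence, with a coverage of 27.6 in Rep.A and 86.2 in Rep.B. Site 2 therefore stood beside CDC25A at the top of the group in both replicates, and site 1 beside CDC42 among the lower values.

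The log odds score of the deposited tables, given for each T base, compares the changes seen with those of other origin. In Rep.A it was -0.0011 for KIF1C site 2 and -0.013 for KIF20A, and 0.01 for KIF1C site 1. Thus 2 of 12 Rep.A clusters of the group were below 0 (16.7%), against 2.7% of all Rep.A clusters in protein-coding exons. Both genes had scores above 0 in Rep.B, 0.056 for KIF1C site 2 and 0.22 for KIF20A, and no cluster of the group was below 0 there. The ends of these 3 sites also differed between the replicates, while those of the other 7 were the same.

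**Figure D3:**
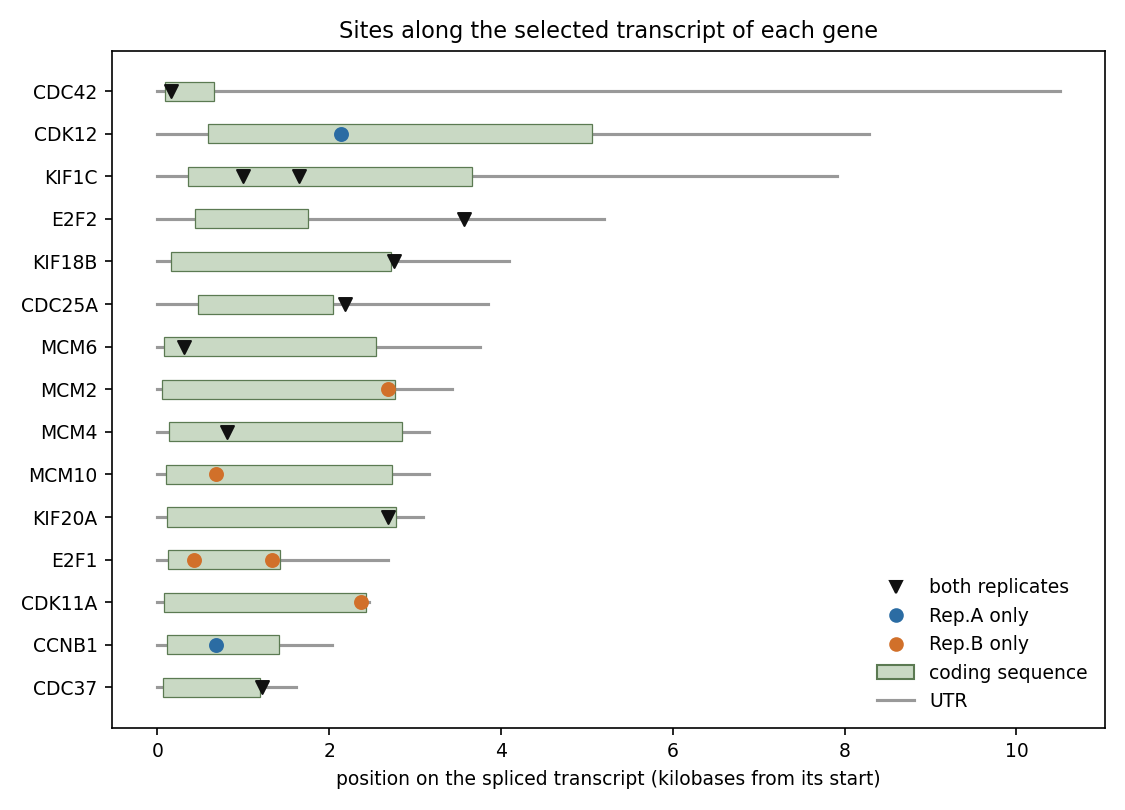
Sites along the spliced transcript with the longest coding sequence of each gene (horizontal axis, kilobases from the transcript start, to scale), with the coding sequence as a box and the UTRs as a line. Triangles mark sites of both replicates and circles those of 1 replicate. The 4 sites in 3′ UTRs (CDC25A, CDC37, E2F2 and KIF18B) were all found in both replicates, and all 7 clusters of 1 replicate lay in coding sequence. The share in coding sequence over all clusters of 1 replicate was not computed.

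By transcript region, 6 of the 10 reproducible sites lay in coding sequence (60%, 95% Wilson interval 31.3 to 83.2), against 59.9% of 669 sites in protein-coding exons. The other 4 lay in 3′ UTRs (40.0%, interval 16.8 to 68.7), against 34.1%. None lay in a 5′ UTR, where 1.64% of all sites lay. Of the 4 sites in 3′ UTRs, those of CDC37, KIF18B and CDC25A were 16, 40 and 143 bases past the stop codon. The coding sites were spread from 9.3% (MCM6) to 96.1% (KIF20A) of the coding sequence. All 7 clusters found in 1 replicate alone lay in coding sequence. Counted by cluster, with each reproducible site entering once per replicate, 19 of the 27 lay there. The matching shares over all genes were not computed, so these 2 counts are given without a background.

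The share of clusters found again in the other replicate was set beside that of all genes. In Rep.A 10 of 12 clusters overlapped a Rep.B cluster (83.3%, interval 55.2 to 95.3), against 85.9% of 779 clusters in protein-coding exons. In Rep.B 10 of 15 overlapped a Rep.A cluster (66.7%, interval 41.7 to 84.8), against 67.2% of 996. When a mean coverage of at least 10 was required in both replicates, the Rep.B share was 40.0% (6 of 15, interval 19.8 to 64.3), against 53.0% of 913. The Rep.A share was then 85.7% (6 of 7, interval 48.7 to 97.4), against 91.3% of 530. Coverage was not scaled for depth, and this cut-off kept all 15 Rep.B clusters but 7 of 12 in Rep.A. The intervals cover counting error only, and with 12 and 15 clusters they are wide.

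The clusters found in 1 replicate were not all low in coverage. MCM2 (66.0) had more coverage in Rep.B than 7 of the 10 reproducible sites had there, and the first E2F1 cluster (51.0) more than 5 of them. Among all Rep.B clusters in protein-coding exons with at least the coverage of MCM2, 71.2% of 139 were found again, and 77.0% of 239 with at least that of the first E2F1 cluster. In Rep.A, CCNB1, the mitotic cyclin, had a cluster with a coverage of 9.0 at 43.7% of its coding sequence (chr5:69174264-69174283, plus strand). At or above that coverage 90.9% of 569 clusters were found again. CDK12, a kinase of RNA polymerase II, had a Rep.A cluster with CATC and a coverage of 11.0 at 34.7% of its coding sequence (chr17:39471372-39471396, plus strand).

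CDK11A, a kinase linked to splicing and mitosis, had a Rep.B cluster with a coverage of 18.4 at 97.5% of the coding sequence (chr1:1702955-1702980, minus strand), with CACC at 2 places. This sequence is also present in CDK11B (chr1:1635812-1635837, minus strand), its near-identical neighbour, so the cluster cannot be ascribed to 1 of the genes.

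**Figure D4:**
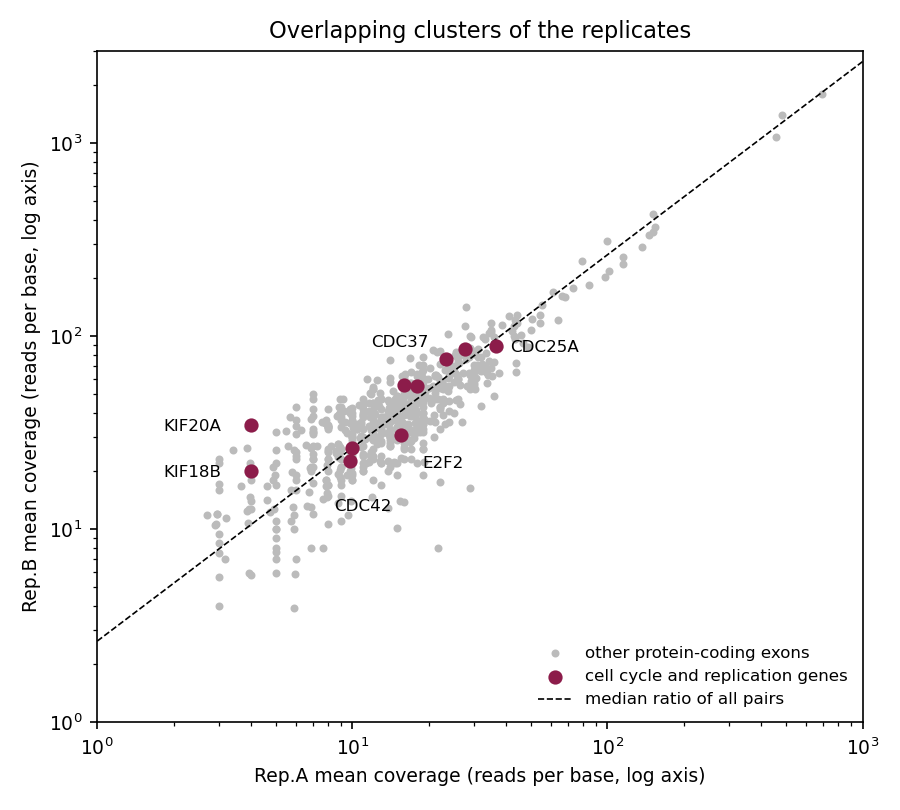
Mean coverage in Rep.A (horizontal) and Rep.B (vertical), both log axes in reads per base, for 666 pairs of overlapping clusters in protein-coding exons, with 3 pairs below 1 read per base not drawn. The 10 pairs of the cell cycle and replication genes (dark) lie along the median ratio of all pairs, 2.64 (dashed), with KIF20A farthest above it.

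Coverage was higher in Rep.B at all 10 sites. The Rep.B to Rep.A ratio had a median of 3.09 at the 10 sites, against 2.64 over all 669 pairs, which stands in here for the difference in depth. On the log2 scale the medians were 1.63 (SD 0.62, n = 10) and 1.40 (SD 0.78, n = 669), where the SD is that of single sites. The difference of the medians was not tested. The lowest ratio was that of E2F2, 1.98, and 20.6% of all pairs lay at or below it. The highest was that of KIF20A, 8.67, which 0.598% of all pairs reached, followed by KIF18B with 5.0, which 5.08% reached. Both ratios rest on a low Rep.A coverage of 4.0, at percentile 8.22 of all Rep.A clusters in protein-coding exons. Without KIF20A the median log2 difference was 1.61 over 9 sites. Across the 10 sites, log2 coverage in the replicates had a Pearson r of 0.82 and a Spearman rho of 0.89. Across all pairs r was 0.75. These are descriptions of sites from the same libraries, which are not independent replicates.

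Other genes of replication and division, taken from 7 lists of 127 genes, held clusters as well. In all, 16 of the 127 (12.6%, against 2.87% of all protein-coding genes) held a reproducible cluster, and 21 (16.5%, against 4.44%) held one in either replicate, 5 of them in Rep.B alone. The lists were drawn up with earlier results of these data known, and without expression the shares are no measure of preference. The nucleotide supply list had 3 of 8 genes, among them TYMS (Rep.A coverage 14.0, Rep.B coverage 31.0) and IMPDH2 (14.0 and 40.0), which encode thymidylate synthase and an enzyme of guanine nucleotide synthesis. The origin licensing list had 1 of 18, GMNN, the inhibitor of relicensing, with a coverage of 3.0 and 4.0. The replication fork list had 1 of 28, RFC1, the large subunit of the clamp loader (18.0 and 32.0).

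The remaining lists concern protein breakdown and chromosome segregation. Over all protein-coding genes 2.87% held a reproducible cluster and 4.44% held one in either replicate. Of 17 genes listed with the ubiquitin ligases of the cell cycle, not all of them ligases, 4 were reproducible. They were CKS1B, SKP2, UBE2C and UBE2S, and SKP2, the factor that targets p27, held 2 sites (18.0 and 48.0, and 6.0 and 19.0). Of 14 cohesin and condensin genes, 3 were reproducible, including the condensin gene NCAPD2, which held 2 sites (33.7 and 57.1, and 16.2 and 30.6). Of 24 kinetochore, spindle and cytokinesis genes, 4 were reproducible, which were MKI67, NUSAP1, RAN and TPX2. RAN, the GTPase of nuclear transport and spindle assembly, had more coverage in Rep.A (21.8) than in Rep.B (8.0), opposite to the 10 sites above. UBE2S also had more in Rep.A (5.91 and 3.91). Of 18 checkpoint genes none was reproducible, and BUB3, a part of the spindle checkpoint, held a cluster in Rep.B alone (87.2).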

How the data were processed

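YB-1 PAR-CLIP clusters of 2 replicates were analysed as deposited. Reads were trimmed with cutadapt 2.10 and aligned with Bowtie 1.0.0 per the submitters' processing notes. The authors aligned to hg38, kept 1 position at random for reads with several, and called the clusters of each replicate separately with wavClusteR. Mean coverage, as deposited, is an unscaled signal (reads per base). The authors gave counts of T-to-C transitions and of T bases, the crosslinking efficiency as a fraction (transitions over T bases), and log odds as a score with no fixed range. The number of reads behind each library was not used here, and PCR duplicates cannot be told from molecules.

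The deposited sequences are those of the plus strand and were reverse complemented for minus-strand clusters. Clusters were assigned to exons of GENCODE release 44 on hg38, on the same strand, by at least 1 shared base. Transcript regions were taken at the cluster's midpoint on the transcript with the longest coding sequence. Copies were exact matches on 25 chromosomes, both strands, and were located for sequences of at least 15 bases. Tetramers were searched on the transcript strand. No condition was compared, so no test was made. The members and lists were chosen with earlier results of these data known. Every member with a cluster was named, with the core regulators that had none. Some genes of the lists are not reported here by name. Symbols read strictly (a number and at most 1 letter) gave 139 members. No column of another sample was present. On simulated data, 600 of 600 clusters were given their gene and transcript part, and 417 of 417 planted overlaps were found. The scripts used matplotlib 3.10.9, scipy 1.17.1, pandas 2.3.3 and numpy 2.4.6 under Python 3.11.15.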

Additional observations from a re-analysis of the deposited data

How the results depend on the processing

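Of 42 recomputed values, 39 moved by less than the replicate spread, the interval or 1.5 times, and none reversed. With clusters whose score was at or above the median, 5 genes were reproducible in place of 9. With a mean coverage of at least 10 in both replicates, 40.0% of Rep.B clusters (6 of 15) were found again, in place of 66.7%. Over all protein-coding exons that share also fell, to 53.0% in place of 67.2%. At this cut-off 6 genes of the group were reproducible. The Rep.A share was 85.7% (6 of 7) in place of 83.3% (10 of 12), with coverage not scaled for depth. Over all protein-coding exons it was 91.3% in place of 85.9%. With relative log odds in place of log2 coverage, the median difference of Rep.B and Rep.A was 0.11, on another scale than 1.63. Genes with a cluster numbered 13 without Rep.A and 11 without Rep.B, against 15. With identical ends required, 7 genes were reproducible, and 8 with sequences present once in the genome. Gene counts over all protein-coding genes under these settings are not given here, so the changes have no background. The strict reading of the symbols left 139 genes, 21 of them CDK genes in place of 28, with the counts of 15 and 9 unchanged. It gave 10.8% of genes with a cluster and 6.47% reproducible, against 4.44% and 2.87% of all protein-coding genes. Introns, run for these 2 counts, changed neither, and the MANE Select transcript, run for the share in coding sequence, left it at 6 of 10. No paired analysis was possible because there was 1 condition. Depth limits clusters of low coverage, and clusters that were not called have no value.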

Other observations

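After the sequences were seen, 3 strings that recurred at sites without CATC or CACC were counted, CTAC, TACC and CTACC. CTAC and TACC were each present in 5 of the 10 sites, against 18.5% and 15.3% of all 665 reproducible sites of at most 60 bases in protein-coding exons. CTACC was present in 4 of the 10 sites, those of CDC25A, CDC37, E2F2 and KIF18B, and in 3 of the 5 sites with neither tetramer. These 4 are also the sites in 3′ UTRs, but the share of CTACC by transcript region over all sites was not computed. The overlap is therefore given without a background. Over all 665 sites CTACC was present in 7.07%, and in 8.91% of the 202 with neither tetramer. Because the letters were chosen from these sequences, the counts are a description and were not tested.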
